A study of Mus musculus with 4 samples.

Results

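Barcodes with more than 20% of their UMIs on mitochondrially encoded genes were a small, shallow class of the E10.5 mouse heart data. They numbered 585 of 33589 barcodes, or 1.74% of all, over 4 single-cell libraries. The class was defined by the share of a barcode's UMIs, the unique molecular identifiers that stand for captured RNA molecules, on the 13 genes whose symbol starts with mt-, at any depth. The mitochondrial values that follow are therefore a description of the rule. The other 32272 genes, called nuclear genes here, entered the rule only through a barcode's total UMIs. Those that reached the filter of a comparison were tested.

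The libraries were made from dissected C57BL/6J embryonic hearts, 2 wild-type (Wt1 and Wt2) and 2 homozygous for the Cyp51 I383V allele (Ho1 and Ho2), to ask what an amino acid change in a sterol demethylase of cholesterol synthesis does to the early heart. All 4 libraries, wild-type ones included, carry the treatment label CRISPR/Cas9, and no sex, litter or number of pooled embryos was given. The hearts were dissociated enzymatically with red blood cell lysis and without a sort or gate, and the change is present in every cell of the homozygous embryos. The total depth was 109893733 UMIs for Wt1, 117034633 for Wt2, 127018819 for Ho1 and 107377100 for Ho2. Values of all 4 libraries stand in this order wherever no library is named, and levels are CPM, counts per 1000000 nuclear UMIs of the barcodes summed.

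The mitochondrial genome encodes 13 proteins, all subunits of the respiratory chain and of ATP synthase, and its transcripts are made and kept inside the organelle. Every other protein of a mitochondrion comes from a nuclear gene and is imported. Cardiac muscle is rich in mitochondria, and embryonic cardiomyocytes build sarcomeres from myosin, titin, actin and troponins while their beating depends on calcium handling by the sarcoplasmic reticulum. In droplet experiments a high mitochondrial share is a usual limit for leaving barcodes out, and the limits of this study were at most 20% mitochondrial counts with at least 500 genes.

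In the wild-type libraries, 60 of 10320 barcodes of Wt1 were over 20%, a share of 0.581% (exact 95% binomial interval 0.444 to 0.748), and 74 of 8212 of Wt2, a share of 0.901% (0.708 to 1.13). In the homozygous libraries the class held 166 of 7999 barcodes of Ho1, a share of 2.08% (1.77 to 2.41), and 285 of 7058 of Ho2, a share of 4.04% (3.59 to 4.52). Both homozygous libraries thus lay above both wild-type libraries, and the homozygous libraries also lay further from each other than the wild-type ones did. The mitochondrial share of the barcodes of at most 20% had the same order, with medians of 1.02%, 1.23%, 1.29% and 1.59%, and its part in the difference was not tested. The mean share was 0.741% ± 0.226 for the wild-type libraries and 3.06% ± 1.39 for the homozygous ones (SD, n = 2 per genotype), 4.12-fold apart. An exact two-sided permutation test over libraries gave p = 0.333, the smallest p that 2 libraries against 2 allow. The intervals cover counting error only. Nothing in the labels says that the libraries of a genotype came from separate litters, so every p-value here measures only the spread between these libraries.

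**Figure D1:**
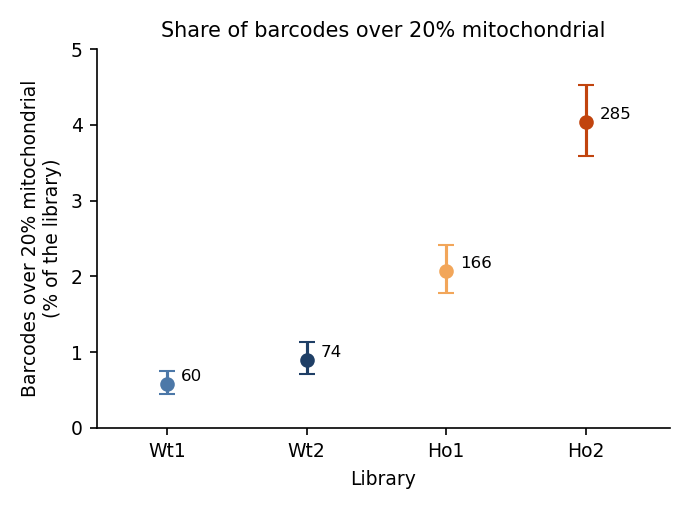
Share of barcodes with over 20% mitochondrial UMIs (y axis, % of the library's barcodes) in each library (x axis), with exact 95% binomial intervals as bars and the number of barcodes beside each point. Wt1 and Wt2 sat at 0.581% and 0.901%, below Ho1 at 2.08% and Ho2 at 4.04%.

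The order of the libraries was not the same among the few barcodes that also had at least 500 genes. These numbered 48 of the 585, 6, 10, 9 and 23 by library, which are the barcodes that the mitochondrial limit alone removed. As shares of barcodes with at least 500 genes they were 0.0621%, 0.130%, 0.121% and 0.353%. Ho1 lay between the wild-type libraries on this scale, so the genotypes overlapped (exact two-sided permutation test, p = 0.667). The other 537 barcodes had under 500 genes and fell under the study's gene limit as well.

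Barcodes over 20% were shallow in every library. Their median depth was 630.5, 716.5, 708 and 842 UMIs, against 10341.5, 13921.5, 15663 and 15611 UMIs in barcodes of at most 20%. The deepest member had 2710 UMIs and 1159 genes, and 6 of the 585 reached 2000 UMIs. Of barcodes with 500 to 1000 UMIs, 4.94% and 7.005% were over 20% in the wild-type libraries and 20.7% and 29.4% in the homozygous ones. No barcode of 5000 or more UMIs was over 20% in any library, among 5678 to 7311 such barcodes per library. Of all barcodes under 2000 UMIs, a limit chosen after seeing the data, 2.95% and 5.55% were over 20% in the wild-type libraries and 15.9% and 26.5% in the homozygous libraries.

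Members held few nuclear molecules and more mitochondrial ones. Median nuclear UMIs per member were 225, 279, 211.5 and 151. The smallest total of any barcode in the files was 500 UMIs, so the rule itself keeps barcodes of at most 20% above these medians, and their smallest nuclear count was 420. Median mitochondrial UMIs were 355.5, 455, 477.5 and 612 in the members, against 109, 161, 195 and 238 in the rest. The median member thus held more mitochondrial molecules than the median barcode of at most 20% in its own library. The rule itself favours this order, since at least 500 UMIs with over 20% mitochondrial sets a least mitochondrial count for every member. Members held 1.79%, 2.10%, 4.47% and 8.94% of their library's mitochondrial UMIs. Their nuclear UMIs came to 19484, 27544, 46195 and 73495, and these sums set the depth of all gene tests below.

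**Figure D2:**
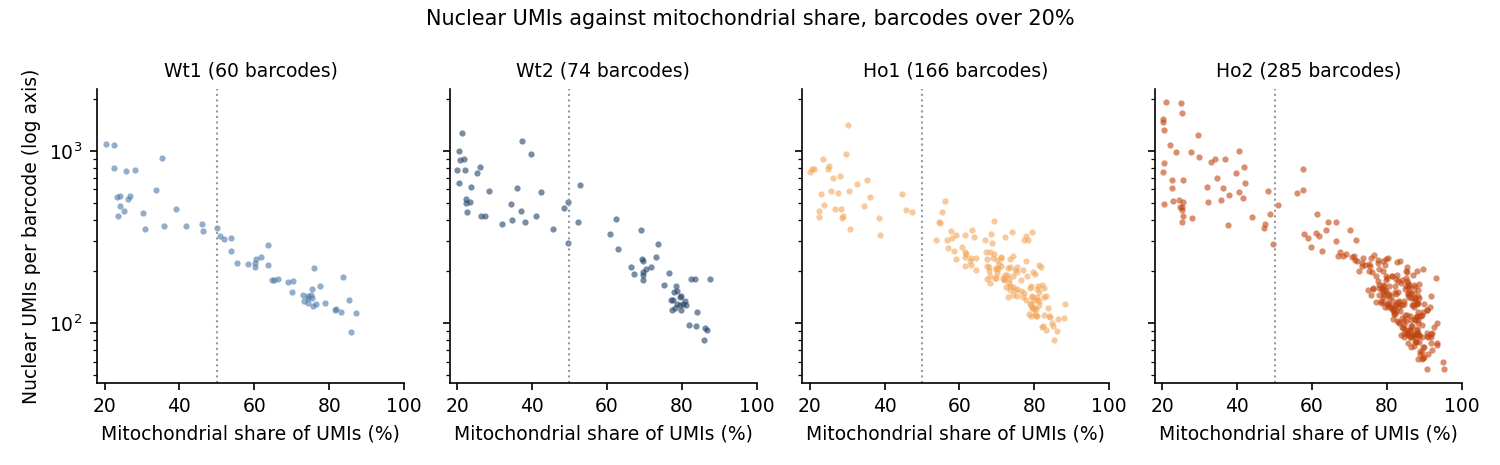
Nuclear UMIs per barcode (y axis, log scale) against the mitochondrial share (x axis, % of UMIs) for each of the 585 barcodes over 20%, 1 panel per library, with a dotted line at 50%. Nuclear UMIs are lower at higher mitochondrial shares in all 4 libraries. This follows largely from the definition of the share, since total UMIs changed little with it. The densest group in Ho2 lies above 80%.

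Most members lay far from the limit. Over 50% mitochondrial were 453 of 585 (77.4%), and the median share was 60.4%, 66.8%, 71.7% and 82.3%. The 132 members from 20% to 50% numbered 22, 31, 31 and 48, so their number was nearly the same in Wt2 and Ho1, and the larger excess of the homozygous libraries was over 50% (38, 43, 135 and 237 barcodes). Ho2 stood apart in its extreme: 169 of its 285 members were over 80%, against 7 in Wt1, 12 in Wt2 and 32 in Ho1. Across members of a library, which share its chemistry, the mitochondrial share followed total UMIs little, with Spearman's rho of -0.239, -0.263, -0.104 and 0.0186 (n = 60, 74, 166 and 285 barcodes). The 10 members nearest to the limit had 20.04% to 20.6% mitochondrial UMIs, with a median of 1020.5 UMIs and 585.5 genes, and the 10 barcodes just outside had 19.24% to 19.66%, with 993 UMIs and 574.5 genes. The 20 barcodes beside the limit were thus alike in depth.

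Between libraries, 136 barcode sequences occurred in more than 1 library. Of these, 3 involved a member, and none was a member in both libraries. Ho1 stood apart from the other libraries in its sex-linked genes. In barcodes of at most 20%, Xist, the RNA that coats the inactive X chromosome, had 5, 4, 32223 and 2 UMIs. Members showed the same split, with 11 Xist UMIs in Ho1 and 0 in the others, while 4 Y-linked genes together were at 103, 145, 0 and 109 CPM. The main comparison below called 94 genes, 72 without Ho1, and 107, 72 and 76 without Wt1, Wt2 and Ho2.

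The composition of the mitochondrial UMIs was close to that of barcodes of at most 20%. The largest share was that of mt-Co2 of cytochrome c oxidase, which made up 21.3% ± 1.08 of mitochondrial UMIs in the members and 20.3% ± 0.732 in the rest (SD over 4 libraries, as for all values in this paragraph). The ATP synthase subunit mt-Atp6 made up 18.2% ± 1.09 against 17.7% ± 0.678. mt-Cytb of complex III was at 16.3% ± 0.991 against 18.2% ± 1.57 and was lower in the members in all 4 libraries. mt-Co3, a further oxidase subunit, was at 8.86% ± 0.563 against 7.69% ± 0.574 and was higher in all 4. The complex I subunits mt-Nd3 (0.835% against 1.15%) and mt-Nd4l (3.25% against 3.88%) were lower in all 4, while mt-Nd1, mt-Nd4 and mt-Nd5 were higher in 2 libraries and lower in 2. All 13 genes were detected in the members, down to mt-Nd6 at 0.101% of mitochondrial UMIs. These genes chose the barcodes, so no test was made.

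**Figure D3:**
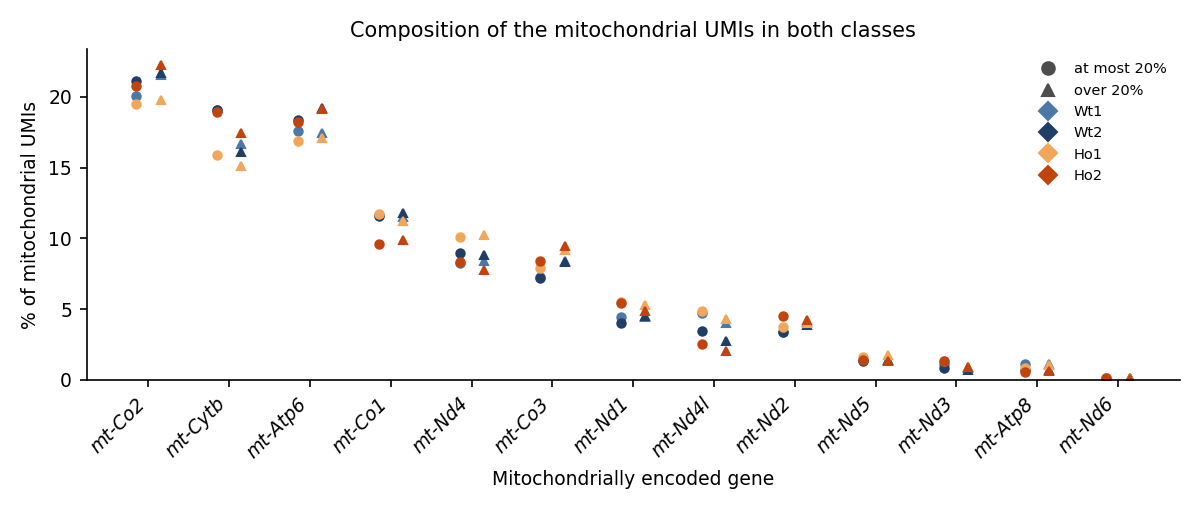
Share of each mitochondrially encoded gene (x axis, ordered by its level in barcodes of at most 20%) in a library's mitochondrial UMIs (y axis, %), with circles for barcodes of at most 20%, triangles for barcodes over 20% and colours for libraries. Circles and triangles lie close together for most genes, with mt-Cytb lower and mt-Co3 higher over 20% in all 4 libraries.

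Of the lineage markers, Tnnt2, the cardiac troponin T of the thin filament, was well detected in the members. It reached 2053, 3522, 3031 and 3143 CPM, against 811.8, 1507, 1787 and 1570 in the rest, and was higher in the members of every library. The markers of other lineages gave few molecules. Cdh5, the VE-cadherin of endothelial junctions, had 6, 0, 3 and 6 UMIs, or 308 CPM in Wt1, 64.9 in Ho1 and 81.6 in Ho2 against 55.7, 83.1 and 54.1 in the rest, and its 0 in Wt2 allows up to 108.9 CPM against 83.4. Hapln1, a hyaluronan link protein of cushion mesenchyme, had 4, 2, 6 and 5 UMIs, and Epcam, an epithelial adhesion protein, had 3, 3, 0 and 1. The 3 Epcam UMIs came to 154.0 CPM in Wt1 and 108.9 in Wt2, against 54.3 and 15.3 in the rest. Their exact 95% binomial intervals were 31.8 to 449.9 and 22.5 to 318 CPM. The 1 Epcam UMI in Ho2 came to 13.6 CPM against 40.5. Crabp1, a retinoic acid binding protein of pharyngeal mesenchyme, had 1, 1, 0 and 0 UMIs. Upk3b, a uroplakin of the epicardial lineage, had none in any library, where a count of 0 allows up to 154.0, 108.9, 64.9 and 40.8 CPM. Its level in the rest was 16.1 to 34.4 CPM, under those limits, so a difference was not detectable at this depth.

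The share of barcodes with a Tnnt2 UMI turned with depth. Thinned to 500 nuclear UMIs each, 57.1% ± 15.5 of members and 32.0% ± 9.71 of the rest had one (SD over 4 libraries), but only 87 members were deep enough and 498 were left out. Without thinning the shares were 40.6% ± 9.69 and 63.1% ± 15.9. RNA free in the droplet solution can also give such UMIs. In endothelial-led barcodes of at most 20%, chosen by marker lists described next that hold Tnnt2 itself, and expected to lack troponin T, 4.603% ± 1.39 had a Tnnt2 UMI when thinned alike and 47.7% ± 10.0 without thinning. Their median depth before thinning was 12804 to 16517 nuclear UMIs by library, against 700 to 766 in the members deep enough to be thinned.

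Assigned to the 9 marker lists by the list whose share of nuclear UMIs stood highest over its mean in barcodes of at most 20%, with at least 5 UMIs of that list, 361 of the 585 members were led by cardiomyocyte genes (61.7%). Another 219 (37.4%) reached no list, 2 were led by endothelial genes and 1 each by epithelial, erythroid and macrophage genes. None was led by cushion mesenchyme, pharyngeal mesenchyme, epicardial or neural genes. The cardiomyocyte-led members numbered 22, 49, 130 and 160. By library these were 36.7%, 66.2%, 78.3% and 56.1% of members, with a mean of 59.3% ± 17.6. Of barcodes of at most 20%, 36.3% ± 11.7 were cardiomyocyte-led, and of those under 2000 UMIs 52.3% ± 19.6, or 28.2%, 62.7%, 72.8% and 45.5% by library. The members thus lay higher than these shallow barcodes in all 4 libraries, a difference within libraries that was not tested. Depth limits this assignment, since 5 UMIs of a low list are rare in a barcode of so few nuclear UMIs.

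The summed cardiomyocyte list was at 32078, 48395, 46455 and 46085 CPM in the members and at 15627, 29981, 37494 and 30633 in the rest. It was higher in the members of all 4 libraries, from 1.24-fold in Ho1 to 2.05-fold in Wt1. The cushion mesenchyme sum lay the other way in all 4, at 510 ± 195 against 853 ± 75.2 CPM (SD over 4 libraries). It rests on 75 UMIs in all members together, and the difference was not tested. Pharyngeal mesenchyme genes were at 47.2 ± 48.6 against 156 ± 172, and epicardial genes at 42.6 ± 30.9 against 144 ± 44.0. These sums rest on 0 to 4 UMIs a library and were lower in the 3 libraries with any UMI. The pharyngeal sum was at 0 UMIs in Ho1, which allows up to 64.9 CPM against 30.5 in the rest, and the epicardial sum at 0 in Wt1, which allows up to 154.0 against 111.7, so neither difference was detectable there. Erythroid genes, whose cells the lysis step removes, were at 535 ± 498 against 998 ± 762 and also lower in all 4. The erythroid sum rests on 93 UMIs in all members together, with only 3 of Hbb-y in Wt1, and was not tested either. Endothelial genes were at 818 ± 395 against 605 ± 110 and higher in 3 of 4, with 1386 against 487 CPM in Wt1. Their exact 95% binomial intervals in Ho1 and Ho2, 546 to 1079 and 435 to 804 CPM, held the rest at 660 and 542. Macrophage genes were at 73.8 ± 80.4 against 27.2 ± 15.5, likewise higher in 3 of 4. The macrophage sum rests on 0, 5, 4 and 2 UMIs, with all 5 of Wt2 in 1 barcode. In Ho1 and Ho2 its exact 95% binomial intervals held the level of the rest. Epithelial genes were at 565, 108.9, 0 and 190 CPM against 184, 116, 38.7 and 192, higher in Wt1 alone, where 11 UMIs in 3 barcodes gave an interval of 282 to 1010 CPM. Their most abundant gene was Krt18, with 14 of 28 UMIs, and Cdh1 and Foxa1 were at 0. Neural genes gave 1, 0, 3 and 0 UMIs, and the 0 in Ho2 allows up to 40.8 CPM against 52.4 in the rest. Fewer cells of a type and less RNA per cell cannot be told apart in such sums.

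Across nuclear genes, the members differed from barcodes of at most 20% of the same library in 94 of 308 genes tested (30.5%), 55 higher (17.9%) and 39 lower (12.7%), at an adjusted p under 0.05 in edgeR's quasi-likelihood test with the library as a block. Fold changes are relative to the scaling of all tested genes, whose median was -0.06 on the log2 scale. Only 308 genes reached the filter, which asked for a mean level worth 10 UMIs in the smallest sum. The mean ran over the sums of both classes, so a gene low in the rest could pass through its level in the members alone. Lars2, Gm26917, Atp2a2 and Igf2r passed in this way, at no more than 131.5, 90.04, 413.6 and 375.3 CPM in the rest of any library. The filter thus favours such rises, and the share called higher includes them. Lars2 and the noncoding Gm42418 and Gm26917 rose most, followed by Nppa, the noncoding 5430431A17Rik, Myh7, Ttn and Myh6.

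Lars2, the leucyl-tRNA synthetase of mitochondria, had the largest rise. It was at 4003, 7515, 6971 and 6327 CPM in the members and at 132, 125, 94.0 and 95.6 CPM in the rest. The groups were far apart in every library, with a log2 fold change of 6.08 ± 0.17 (SE) and adjusted p = 5.18e-18 (edgeR). Gm42418, a long noncoding RNA gene that lies over a ribosomal RNA gene, rose as well. It was at 48604, 65895, 51196 and 34329 CPM in the members and at 1696, 1786, 1297 and 1026 CPM in the rest, a log2 fold change of 5.36 ± 0.12 (adjusted p = 3.74e-20, edgeR). Its neighbour Gm26917 was at 1232, 2033, 1039 and 1225 CPM against 90.04, 81.8, 72.6 and 83.5 (log2 fold change 4.30 ± 0.26).

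The annotation places Lars2 at chr9:123366927-123462666 on the plus strand of GRCm38, and Gm42418 and Gm26917 on the plus strand at chr17:39846958-39848788 and chr17:39843013-39846341. Gm42418 overlaps the ribosomal RNA gene CT010467.1 (chr17:39846353-39848827) and the noncoding AY036118 (chr17:39847113-39848035), both on the minus strand. The study's methods name the default settings of Cell Ranger, and how many reads of ribosomal RNA these settings count for Gm42418 was not tested. The 3′ part of Lars2 shares exact runs with transcripts of other genes, 52 bases with Gm15564 and 41 bases with AA474408, and the first 1244 bases of Gm42418 are the reverse complement of part of CT010467.1. The middle 30 bases of each run are shown because these bases belong to more than 1 annotated gene; capitals mark the shared bases, which fill each window.
Lars2, 3′ UTR, shared with Gm15564, chr9:123462059-123462088 (+): GCGTTGGATTGTTCACCCACTAATAGGGAA
Lars2, 3′ UTR, shared with AA474408, chr9:123461947-123461976 (+): GAAAAGTTACCACAGGGATAACTGGCTTGT
Gm42418, antisense to CT010467.1, chr17:39847565-39847594 (+): GGAAGGGCACCACCAGGAGTGGAGCCTGCG
The counts are per gene and do not show where in a transcript the reads lay, so the levels of Lars2 and Gm42418 are uncertain as measures of these genes. The part of shared or overlapping sequence in the rise of Lars2 and Gm42418 was not tested.

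Of the 11 cardiomyocyte markers tested, 9 rose and none fell, with a median log2 fold change of 0.82 against -0.06 over all genes. On totals that include the mitochondrial UMIs 3 rose and 6 fell, against 8 and 290 of all 308 genes. Ttn, the giant spring protein of the sarcomere, was at 4465, 5736, 6451 and 6055 CPM in the members and 691, 1427, 1550 and 1408 CPM in the rest (log2 fold change 2.44 ± 0.12). Myh7, the beta myosin heavy chain, was at 3079, 4429, 2598 and 4191 CPM against 349, 838, 972 and 881 (2.50 ± 0.18), and Myh6, the alpha chain, rose by 2.34 ± 0.12. All of these lay higher in the members of every library, as did 12.3% of the genes tested. Tnnt2 rose by 1.30 ± 0.12 and Myl2, the ventricular regulatory light chain, by 1.72 ± 0.17. The rise was unequal within the list: Myl7, the atrial light chain, and Actc1, cardiac actin, had log2 fold changes of 0.18 ± 0.10 and 0.09 ± 0.12 and did not pass the test (adjusted p = 0.196 and 0.591, edgeR).

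Further genes named by the size of their rise included a cardiac hormone, a calcium pump and imprinted genes. Nppa, the atrial natriuretic peptide, was at 5440, 1997, 7014 and 9334 CPM in the members and 297, 1309, 1278 and 768 CPM in the rest (log2 fold change 3.06 ± 0.32, adjusted p = 9.09e-08, edgeR). Its rise was small in Wt2 and large in the other 3 libraries. Atp2a2, the calcium pump of the sarcoplasmic reticulum, was at 770, 1960, 996 and 1170 CPM against 219, 328, 386 and 414 (2.05 ± 0.21). Of the 3 calcium handling genes tested it alone rose. 5430431A17Rik rose by 2.86 ± 0.20 and Igf2r, which clears the growth factor Igf2, by 2.17 ± 0.20, while the imprinted pair H19 and Igf2 rose by 1.67 ± 0.15 and 1.66 ± 0.14. Atp2a2 and Igf2r were higher in members from 20% to 50% than in those over 50% in all 4 libraries, at 1683 ± 777.8 and 1629 ± 440.6 against 501.6 ± 250.8 and 676 ± 213 CPM (SD over 4 libraries), a description of low counts with no test. Part of the loci of Nppa, Ttn and Myh7 carries annotated antisense genes, among them Mhrt at Myh7.

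Genes for proteins folded in the endoplasmic reticulum also rose. Of 9 tested, 6 rose and 2 fell, with a median of 0.84. On totals that include the mitochondrial UMIs none rose and 7 fell, against 8 and 290 of all 308 genes. The chaperone Hspa5 (BiP) was at 1283, 2360, 1364 and 2014 CPM in the members and 589, 700, 588 and 651 CPM in the rest (log2 fold change 1.74 ± 0.13, adjusted p = 6.29e-10, edgeR). The chaperone Hsp90b1 and the disulphide isomerase Pdia6 rose by 1.01 ± 0.12 and 1.19 ± 0.14. The fibronectin gene Fn1 was called as well, but its 2002 CPM in Wt1 stood far above 436, 476 and 503 CPM in the other libraries. The 2 that fell, Sec61g and Sec61b, are small subunits of the protein channel of that membrane.

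Genes of abundant cytosolic proteins made up part of those that fell. Of 26 abundant cytosolic protein genes 10 fell and 2 rose (Eef2 and Eef1a1, the elongation factors), against 12.7% and 17.9% of all genes tested. Their median was -0.30. Without scaling beyond nuclear totals 17 fell and 1 rose, against 144 and 35 of all 308 genes. Actg1, cytoplasmic gamma actin, was at 1642, 1416, 1299 and 1265 CPM in the members and 3284, 3090, 1982 and 3112 CPM in the rest, and its log2 level fell by 0.77 ± 0.12. It was lower in the members of every library, as were 50.6% of the genes tested. The small modifier Sumo2 and the histone H3f3b both fell by 0.82, the histone H2afz by 0.71 and the lectin Lgals1 by 0.74. Of the other genes named by size, Id3, Gng5, Prdx1, Tomm7 and Csrp2 fell by 0.63, 0.62, 0.61, 0.60 and 0.58.

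Of 44 nuclear genes of the respiratory chain 5 rose and 5 fell, below the 17.9% and 12.7% of all genes tested, with a median of -0.07, near that of all genes, and 2 rose and 18 fell when no scaling beyond nuclear totals was used. Cytochrome c (Cycs) fell by 0.48 ± 0.14 and the oxidase subunit Cox6b1 by 0.40 ± 0.13. Of 5 import and carrier genes 2 fell, Tomm7 of the outer membrane pore and the chaperonin Hspe1. Cycs, Cox6b1 and Tomm7 were not called with DESeq2 or without Wt2, nor Cox6b1 and Tomm7 without Ho2, nor Cycs without Ho1. Of 77 ribosomal protein genes 10 rose and 3 fell with a median of -0.04, but without scaling beyond nuclear totals 4 rose and 39 fell. That choice moved the median of all genes to -0.31, with 35 genes higher and 144 lower.

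**Figure D4:**
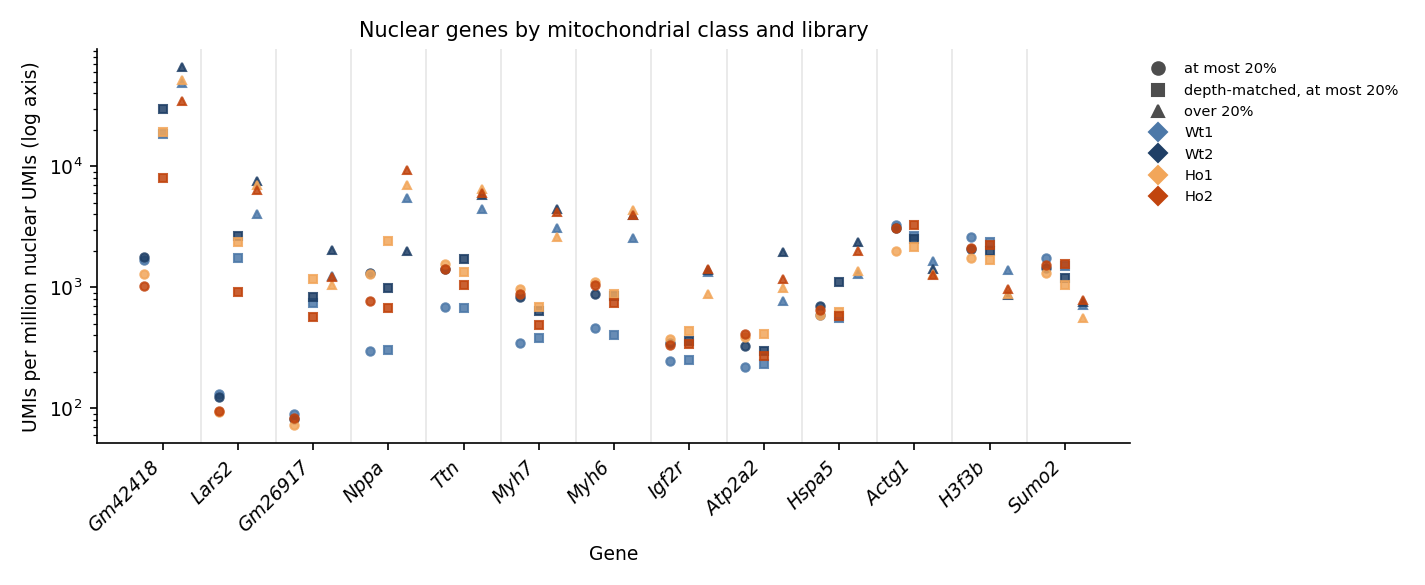
CPM of nuclear UMIs (y axis, log scale) of 13 nuclear genes (x axis) in barcodes of at most 20% (circles), depth-matched barcodes of at most 20% (squares) and barcodes over 20% (triangles), with colours for libraries. Triangles lie above circles for the genes from Gm42418 to Hspa5 in all 4 libraries and below them for Actg1, H3f3b and Sumo2.

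Because the members were shallow, they were also set against shallow barcodes of at most 20%, 3 for each member, nearest in nuclear UMIs in the same library. The match could not be close, with matched medians of 519, 525.5, 623.5 and 923 nuclear UMIs. No barcode of at most 20% had under 420, and none was used more than once, so the 855 taken in Ho2 went past the 778 that had under 2000 UMIs. With 1 barcode per member the medians were 497, 492.5, 516 and 576, and 63 genes were called, 47 higher and 16 lower. Of 302 genes tested 71 were called (23.5%), 46 higher (15.2%) and 25 lower (8.28%), and without scaling beyond nuclear totals 34 higher and 92 lower. All 11 cardiomyocyte markers rose, with 11 of 11 also called without that scaling, and their median log2 fold change was 1.00 against -0.04 over all genes. Myh7 rose by 2.88 ± 0.18, Myh6 by 2.55 ± 0.12 and Ttn by 2.48 ± 0.14, and Myl7 and Actc1 now passed the test, at 0.75 ± 0.14 and 0.54 ± 0.12. Nppa rose by 2.77 ± 0.38, Atp2a2 by 2.15 ± 0.23 and Hspa5 by 1.55 ± 0.16.

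The rises of Lars2 and Gm42418 were smaller in this comparison. Lars2 was at 1758, 2637, 2389 and 909 CPM in the matched barcodes, so its log2 fold change was 1.97 ± 0.21 (adjusted p = 1.27e-06, edgeR), and Gm42418 was at 18342, 29567, 19310 and 8039 CPM, for 1.68 ± 0.24. Both lay higher in the matched barcodes than in barcodes of at most 20% as a whole. Gm26917 had a log2 fold change of 0.92 ± 0.21 and was higher in 3 of 4 libraries, but with 1 matched barcode per member it was at 0.38 and did not pass (adjusted p = 0.304, edgeR), nor did it with every gene tested. Actb, cytoplasmic beta actin, had the largest fall: it was at 1694, 2396, 1429 and 1510 CPM in the members against 4390, 5494, 4445 and 3709, a fall by 1.20 ± 0.12 (adjusted p = 1.26e-06, edgeR). H3f3b, Actg1, the chromatin protein Hmgb1 and Sumo2 fell by 0.85, 0.76, 0.76 and 0.72. Of 39 respiratory chain genes 7 rose, near the 15.2% of all genes, and none fell, with a median of 0.23, whereas 2 rose and 2 fell without scaling beyond nuclear totals. Cycs and Cox6b1, called against all of the rest, had values of -0.02 ± 0.15 and -0.11 ± 0.14 here and did not pass.

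Among cardiomyocyte-led barcodes alone, 65 of 134 genes tested were called (48.5%), 31 higher (23.1%) and 34 lower (25.4%), and without scaling beyond nuclear totals 14 higher and 65 lower. The cardiomyocyte list chose these barcodes, so its own genes are not read here. The deep barcodes of this comparison held medians of 9026 to 16797 nuclear UMIs, against 183.5 to 352 in the members. Lars2 and Gm42418 again rose most, by 6.28 ± 0.11 and 5.69 ± 0.14, and Igf2 rose by 2.04 ± 0.14. Of 22 respiratory chain genes 14 fell and none rose, with a median of -0.53 against 0.01 over all genes. Cycs was at 999, 632, 1037 and 1126 CPM in the members and 2360, 2559, 2648 and 2461 CPM in the rest, and its log2 level fell by 1.03 ± 0.14. The oxidase subunits Cox6b1 and Cox5a fell by 0.77 and 0.76, and the smooth muscle genes Acta2 and Tagln, active in the early heart, by 0.87 and 0.82. Of 56 ribosomal protein genes 14 rose and none fell, with a median of 0.13, whereas 3 rose and 14 fell without that scaling. Of 14 abundant cytosolic protein genes 5 rose and 4 fell, with a median of 0.006, and 1 rose and 8 fell without that scaling. Ptma, Tmsb4x and Tmsb10, which fell against all of the rest, were among those that rose here. When cardiomyocyte-led barcodes were matched on total UMIs, an alternative added after seeing the data, 21 genes were called, 18 higher and 3 lower. Cycs (-0.46), Cox6b1, Acta2 (-0.06) and Gapdh (-0.19) no longer passed.

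The members were not uniform along the mitochondrial share. In a comparison added after seeing the data, the 453 members over 50% were set against the 132 from 20% to 50%. Their nuclear sums were small, from 6900 UMIs in Wt1 to 36938 in Ho2 over 50%, and 13 of 104 genes tested were called (12.5%), 10 lower (9.62%) and 3 higher (2.88%). Without scaling beyond nuclear totals 50 were higher and 7 lower. The bands came from the values that chose the members, and the nuclear genes entered them only through a barcode's total UMIs.

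Malat1, a long noncoding RNA kept in the nucleus, had the largest fall. It was at 2319, 2656, 3114 and 2761 CPM over 50% and at 5960, 14642, 12009 and 30664 CPM from 20% to 50%, a fall by 2.88 ± 0.39 on the log2 scale (adjusted p = 0.00252, edgeR). It was lower over 50% in all 4 libraries, as were 7.69% of the genes tested. Barcodes from 5% to 20% held 14220 to 15010 CPM, and barcodes of at most 20% as a whole 6344 to 7577 CPM, so members over 50% lay below both of these groups in every library. In the class as a whole Malat1 passed the test as higher (0.61 ± 0.18, adjusted p = 0.0132, edgeR) but lay higher in only 2 of 4 libraries, Wt2 and Ho2, and its direction turned with the limit and the scaling. The call was lost with DESeq2, without scaling beyond nuclear totals, without Wt2, without Ho2 and without the library block. It was also lost against barcodes of at most 20% under 2000 UMIs.

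Of the cardiomyocyte genes, 4 were also lower over 50%. Myh7 was at 870, 1207, 1502 and 2247 CPM against 4291, 5815, 4180 and 6155, a fall by 2.15 ± 0.17 (adjusted p = 0.000181, edgeR). Myh7 and Tnnt2 had 6 and 8 UMIs over 50% in Wt1, so neither was tested with at least 10 UMIs in every sum. Ttn fell by 1.43 ± 0.21, Myh6 by 1.33 ± 0.23 and Tnnt2 by 0.87 ± 0.13, out of 10 cardiomyocyte genes tested, with a median of -0.51 against -0.004 over all genes. Igf2 fell by 1.87 ± 0.27, and the chaperones Hsp90b1, Hspa5 and Hsp90ab1 by 0.69, 0.82 and 0.59. H19 was lower by 2.36 ± 0.26, but had 9, 8, 40 and 45 UMIs over 50% against 24, 62, 81 and 237. It was not tested with at least 10 UMIs in every sum, so its value is a description. The 3 that rose were Tmsb4x, which binds actin monomers (0.62 ± 0.11), the ribosomal protein gene Rpl15 (0.48 ± 0.12) and the nucleotide kinase Nme2 (0.47 ± 0.12). None of the 3 chaperones was called without scaling beyond nuclear totals. With DESeq2, and again without Ho2, 7 genes were called and none of them rose, so Tmsb4x, Rpl15 and Nme2 all lost their call. Hsp90b1 and Hspa5 were not called in either of these settings, nor Myh6 without Ho2, nor Hsp90b1 and Myh6 without Wt1. Ribosomal protein genes together were at 205800, 176600, 196200 and 185700 CPM over 50% against 149000, 129100, 156500 and 111200, and 31 of 51 rose without scaling beyond nuclear totals, against 1 with it.

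Lars2 was higher over 50% in all 4 libraries, as were 54.8% of the genes tested, at 6087, 9295, 8610 and 9909 CPM against 2861, 6750, 4603 and 2708, but did not pass the test (log2 fold change 0.65 ± 0.22, adjusted p = 0.0961, edgeR). Gm42418 had a log2 fold change of 0.06 ± 0.20. The 10 genes that fell had a median longest transcript of 4197 bases in the annotation, with 5 of 10 at 4000 bases or longer, against a median of 1458 bases over all genes tested. In the comparison of all members with the rest, the genes that rose had a median of 2286 bases, those that fell 1216 and all tested 1523. Against depth-matched barcodes the medians were closer, 2164 for those that rose and 1920 for those that fell. Over all genes tested, which share their libraries, the fold change followed length little, at Spearman's rho of -0.13 over 50% against 20% to 50% (104 genes), 0.18 against the rest (308) and 0.015 against matched barcodes (302). The part of transcript length in these results was not tested.

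**Figure D5:**
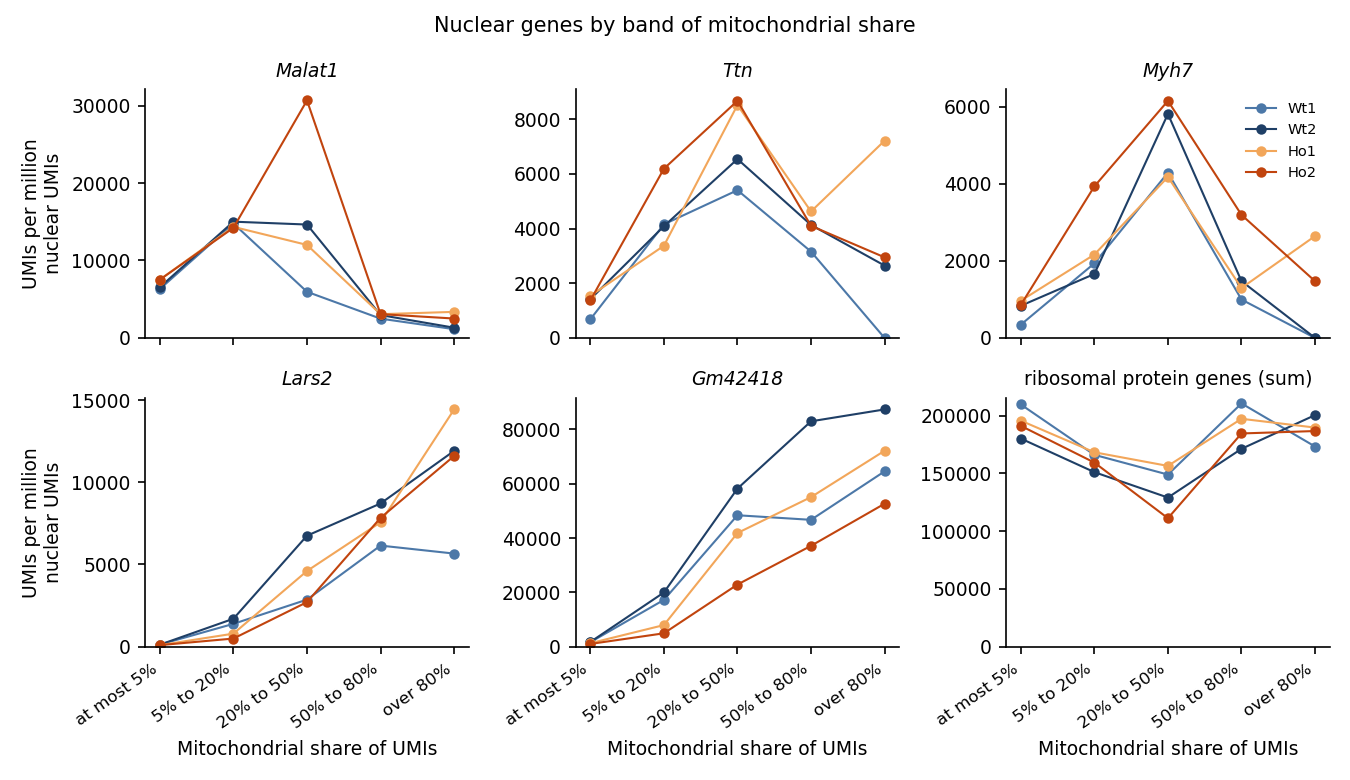
CPM of nuclear UMIs (y axis) of 5 nuclear genes and of the summed ribosomal protein genes in barcodes grouped by mitochondrial share (x axis), with 1 line per library. Malat1, Ttn and Myh7 are lower over 50% than from 20% to 50% in every library when the bands over 50% are pooled, and Lars2 is higher; the points over 80% in Wt1 and Wt2 rest on 883 and 1511 nuclear UMIs.

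The remaining gene lists gave few or no testable genes at this depth. Of 5 heat shock genes none was called against all of the rest, and against depth-matched barcodes Dnaja1 fell. Of 6 glycolysis genes Tpi1 and Pkm rose, against 17.9% of all genes tested, and the median was -0.13. Without scaling beyond nuclear totals none rose and 4 fell, against 35 and 144 of all 308 genes. No gene of the immediate early, integrated stress response, p53 and apoptosis, S phase, G2/M phase, cholesterol synthesis or hedgehog lists reached the filter. As sums, cholesterol synthesis genes were at 1198 ± 219 CPM in the members and 1138 ± 91.8 in the rest, and p53 and apoptosis genes at 662 ± 134 and 750 ± 12.6, so both differed by less than the spread of the members' libraries. Cyp51, the gene that carries the change, gave 0, 2, 2 and 4 UMIs in the members and was too low to test.

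Between genotypes, no gene of 293 tested differed within the members (0.0% called at an adjusted p under 0.05, edgeR). At an unadjusted p under 0.05 there were 11 genes, and DESeq2 called 0 with 3 such genes. The lowest adjusted p belonged to Mdk, the growth factor midkine, at 2823 and 2215 CPM in Wt1 and Wt2 and 1212 and 1238 CPM in Ho1 and Ho2. Both homozygous libraries lay below both wild-type libraries, with a log2 difference of -1.03 ± 0.23 (adjusted p = 0.0818, edgeR), but 84 of the 293 genes (28.7%) had genotypes that did not overlap. Nppa, at 1.18 ± 0.35, did not pass either.

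For 2 of 308 genes (0.649%) the difference between members and rest itself differed between genotypes. The log2 ratio of members to rest for Myh7 was 3.14 and 2.40 for the wild-type libraries and 1.42 and 2.25 for the homozygous ones, an interaction of -0.91 ± 0.23. For Myl2 it was 2.39, 1.62, 0.695 and 1.44, an interaction of -0.93 ± 0.24 (adjusted p = 0.0422 for both, edgeR). Both ratios were smaller in the homozygous libraries, and neither passed the test when any 1 library was left out.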

How the data were processed

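Hearts of 4 mouse samples were measured by droplet single-cell RNA-seq. The deposited matrices hold raw UMI counts per gene and barcode, which the authors made with Cell Ranger 6.1.1 against GRCm38; their annotation is not given in the sources used here, and coordinates here are from GENCODE M21 (72 of 72 named genes matched by ID). Seurat 4.1.0 is named in the submitters' processing notes. The members and gene lists were chosen with earlier results of these data known. Mitochondrial share, depth and genes were computed per barcode (Python 3.11.15, numpy 2.4.6, pandas 2.3.3, scipy 1.17.1), with no doublet caller. Counts of nuclear genes were summed per library and class and tested with edgeR 4.0.16 (TMM, quasi-likelihood, library as block, R 4.3.3, Benjamini-Hochberg over all genes tested), after tests on simulated data. DESeq2 1.42.0, other scalings, filters, limits and left-out libraries were alternatives. Named genes were the 6 lineage markers, all mt- genes, Cyp51, the 10 largest rises and falls called in the same direction in every library, and the most abundant and most changed list members. The comparison of over 50% with 20% to 50% was added after seeing the data.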

Additional observations from a re-analysis of the deposited data

Results flagged for a closer look

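The difference between barcodes over 20% and the rest itself differed between genotypes for Myh7 and Myl2, by -0.91 ± 0.23 and -0.93 ± 0.24 on the log2 scale (Ho against Wt, adjusted p = 0.0422 for both in edgeR's quasi-likelihood test of the interaction over 308 genes). The rest of Wt1 held 349 CPM of Myh7, the lowest of the 4 libraries, against 838 to 972 CPM in the others. No gene was called when any 1 library was left out, with DESeq2, without scaling beyond nuclear totals, with every gene tested, with at least 10 UMIs in every sum, or in members with at least 500 genes.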

How the results depend on the processing

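The share of barcodes over 20% was higher in Ho than in Wt under every limit and depth range run, by 0.0489 points at 2000 or more UMIs up to 16.9 points under 2000 UMIs (added after seeing the data), and by 1.33 to 3.30 points without each library. Against the rest, 94 of 308 genes were called, and 179 without scaling beyond nuclear totals, 298 on totals with mitochondrial UMIs, 916 of 24180 with every gene tested, 53 without the library block, 29 of 85 in members with at least 500 genes, 897 of 1543, 187 of 627 and 50 of 191 at limits of 10%, 15% and 30%, 30 of 122 for over 50% against at most 20% (added), and 72 to 107 without each library. Against depth-matched barcodes 71 became 43 with DESeq2, 126 unscaled, 429 of 14831 with every gene, 23 of 86 with at least 500 genes and 53 to 67 without each library. Among cardiomyocyte-led barcodes 65 of 134 became 857 of 21508 with every gene, 12 of 21 with at least 500 genes, 21 of 133 matched on total UMIs (added) and 50 to 128 without each library, 128 of 332 being without Wt1. Over 50% against 20% to 50%, 13 became 7 with DESeq2, 57 unscaled, 4 of 10715 with every gene, 8 of 113 with at least 10 UMIs in every sum and 7 to 18 without each library, 7 being without Ho2. The interaction fell from 2 to 0 genes under the settings given above, those without each library included. In the lineage list and marker sums, the share with a Tnnt2 UMI differed by 45.27 points at 1000 UMIs, where 14 members are left (2, 2, 1 and 9 by library), and by -22.55 points without thinning. On totals with mitochondrial UMIs, where 8 genes were called higher and 290 lower, Tnnt2, Hsp90b1, Pdia6 and Malat1 turned to -0.32, -0.63, -0.53 and -1.04. Malat1 was also at -0.24 with every gene, -0.70 at a limit of 30% and -1.29 over 50%. Actc1 was at -0.0043 against matched barcodes with every gene, and Actc1 and Myl7 at 0.14 each among cardiomyocyte-led barcodes matched on total UMIs, a description only, since their list chose those barcodes. Of 460 values of the 25 genes named against the rest, 418 kept their direction and side of the threshold, 35 kept the direction only and 7 turned. The causes were not tested.

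The replicate numbers did not pair the libraries: deviations of same-numbered libraries correlated at 0.0876 in members and -0.422 in the rest (2 pairs). With the replicate block 2 genes were called between genotypes (Mdk and Nppa), with crossed numbers (added) 0, and with every gene tested 1. The fit at 2000 or more UMIs was not run, since 6 members in 2 libraries reached that depth. Sums of 19484 to 73495 nuclear UMIs limit the tests to abundant genes.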
